A study of Mus musculus with 4 samples.

Results

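The genes described here are 6 that take up or use L-arginine: the arginases Arg1 and Arg2, the inducible nitric oxide synthase Nos2, the ornithine decarboxylase Odc1, and the cationic amino acid transporters Slc7a1 and Slc7a2. All 6 were found in the mouse gene table, and every called peak that touched a gene body extended by 20 kb at each end was taken. Over all libraries these peaks merged, at 1 bp of overlap, into 17 of the 45299 accessible regions of the series. The data are ATAC-seq peak lists, which record where the Tn5 transposase could cut chromatin, from cells sorted as Gr1+CD11b+ from the ascites of mice 14 days after they received EL4 cells, a mouse T lymphoma line. The labels call these cells myeloid-derived suppressor cells. Mice lacking Sphk2, the sphingosine kinase 2 gene, gave 2 libraries (Sphk2 KO) and wild-type mice gave 2 (WT). All 4 libraries came from hosts given EL4 cells, and each used 20000 cells with 40% of the recommended Tn5. The labels give no allele, strain, sex or age, and do not say which animals or how many lie behind a library, so any p-value measures the spread between libraries.

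Arginine metabolism is a defining trait of myeloid-derived suppressor cells. Slc7a1 and Slc7a2 carry arginine into the cell, the arginases split it into urea and ornithine, and Nos2 turns it into nitric oxide and citrulline. Odc1 converts ornithine into putrescine, the start of polyamine synthesis. Depletion of arginine and release of nitric oxide are known routes by which such cells restrain T cells.

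The lists were not equally deep. Retained fragments numbered 25877428 and 27686223 in Sphk2 KO replicates 1 and 2 and 33859480 and 34443062 in WT replicates 1 and 2, and the lists held 20759 and 27446 peaks in Sphk2 KO against 31507 and 31843 in WT. The mean fragment was 179 and 193 bp long in Sphk2 KO and 156 and 177 bp in WT. A −log10 q here is the authors' score for a peak against its local background, and it grows with depth. A percentile gives the share of a library's own peaks that score no higher. A site without a call may still be open below the threshold, and in bulk libraries fewer cells with an open site cannot be told apart from less opening per cell. Of 9 granulocyte and myeloid markers of the sort, 5 showed a gene-end peak, one no further than 1 kb from either end of the gene, in all 4 libraries: Itgam, which encodes CD11b, Spi1, Cebpe, S100a8 and S100a9. Ly6c2, a gene of the Gr1 antigen, had one in all but Sphk2 KO replicate 1, Csf3r, a granulocyte receptor gene, in WT replicate 1 alone, and Ly6g and Ly6c1 had none. Of 8 T cell genes, which host T cells or EL4 cells could carry, 1 and 2 had one in Sphk2 KO replicates 1 and 2 and 1 and 3 in WT replicates 1 and 2. Cd3d had one in all 4 libraries, at percentiles 96.4 and 97.2 in Sphk2 KO and 95.8 and 96.5 in WT. Cd3e, Cd3g, Lck and Tcf7 had none. A gene-end peak can also lie near another gene, and whether those at marker genes did was not tested. Of 6 monocyte and macrophage genes, 2 and 3 had one in Sphk2 KO and 4 in each WT library, with Irf8 called in WT alone. None of the B cell, NK cell or mast cell genes had one. Over all 21887 protein-coding genes, 41.6% had a gene-end peak in all 4 libraries and 48.6% had none in any. By library the shares with one were 42.6% and 47.3% in Sphk2 KO and 47.9% and 48.8% in WT. Both WT libraries and neither Sphk2 KO library had one at 1.27% of genes. Of 3 dendritic cell genes, Xcr1 had one in all 4 libraries, Flt3 in all but Sphk2 KO replicate 1, and Zbtb46 had none. The Xcr1 peak stood at percentiles 95.3 and 95.4 in Sphk2 KO and 96.8 and 97.3 in WT. Klf1, 1 of 3 erythroid genes, had one in all 4 libraries, and Col1a1, 1 of 4 fibroblast and mesothelial genes, in all but Sphk2 KO replicate 1, with none at the other genes of these lists.

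The promoter stretches of the 2 members held by the RefSeq promoter table (build GRCm38.p6, the mm10 assembly), and that of Ass1, a gene of the same pathway described further on, are shown because called peaks lay over them. Each line gives the 250 bases before a transcription start, 5′ to 3′, and capitals mark a motif of the search given in the text. The table holds no entry for Arg1, Arg2, Nos2 or Slc7a2.
Slc7a1 (chr5:148399905-148400154, minus strand): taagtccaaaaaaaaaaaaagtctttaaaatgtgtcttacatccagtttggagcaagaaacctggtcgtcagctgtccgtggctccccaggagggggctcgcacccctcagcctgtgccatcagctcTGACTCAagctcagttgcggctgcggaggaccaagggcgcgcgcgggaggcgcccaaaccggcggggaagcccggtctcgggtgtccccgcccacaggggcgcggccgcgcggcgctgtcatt
Odc1 (chr12:17544623-17544872, plus strand): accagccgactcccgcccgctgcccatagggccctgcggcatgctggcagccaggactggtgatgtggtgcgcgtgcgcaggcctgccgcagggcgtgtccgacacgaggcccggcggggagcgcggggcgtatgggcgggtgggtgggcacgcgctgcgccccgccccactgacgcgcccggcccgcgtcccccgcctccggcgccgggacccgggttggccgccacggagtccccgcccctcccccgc
Ass1 (chr2:31470020-31470269, plus strand): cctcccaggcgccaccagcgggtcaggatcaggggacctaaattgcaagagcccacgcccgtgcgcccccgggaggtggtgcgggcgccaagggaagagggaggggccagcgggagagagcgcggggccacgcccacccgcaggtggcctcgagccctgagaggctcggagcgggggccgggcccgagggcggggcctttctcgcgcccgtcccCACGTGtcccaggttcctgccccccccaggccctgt

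These stretches were searched on both strands for TTGCNNAA (C/EBP), TTCNNNGAA and its form with 1 more base in the spacer (STAT), TGANTCA (AP-1), GAGGAAGT (PU.1), ACGTG (hypoxia response), CACGTG (E-box, which contains ACGTG) and the interferon-stimulated response element. The Slc7a1 stretch held TGANTCA, starting 123 bases before the start, a motif present in 6.75% of 32851 such stretches. The Odc1 stretch held none of them and consisted of 80.0% G and C, against a median of 52.4%. The Ass1 stretch held CACGTG, and the ACGTG inside it, starting 36 bases before the start, and CACGTG was in 6.02% of all stretches. A match describes letters only and says nothing of binding.

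Arg1 had the weakest and most uneven calls of the genes with more than 1 region. The gene lies on chromosome 10 from 24915207 to 24927470 (mm10), and no peak of any library touched the gene body. Of its 3 regions, 0 and 1 were called in Sphk2 KO replicates 1 and 2, against 2 and 3 in WT. Region 3 (24930250 to 24930582), 2780 bp above the upper gene end, had a −log10 q of 3.57 in Sphk2 KO replicate 2 and no call in Sphk2 KO replicate 1, against 9.56 and 8.22 in WT. The stacks at these summits were 16 fragments high in Sphk2 KO replicate 2 and 26 and 25 in WT. It thus stood at percentile 13.7 of the Sphk2 KO replicate 2 list, against 45.2 and 37.6 in the WT lists. It spans the ends of the non-coding RNA genes Gm40616 and Gm36228. Mouse Arg1 is transcribed towards lower coordinates, so this side lies upstream of it, where macrophages are known to use an Arg1 enhancer bound by STAT6, PU.1 and C/EBPβ. Whether region 3 is that enhancer was not tested.

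Arg1 region 1 (24911357 to 24911726), inside Med23 and 3481 bp below the gene, was called with 5.65 and 4.76 in WT and not called in Sphk2 KO. It was the only WT-only region of the 17, meaning called in the 2 WT lists and absent from the 2 Sphk2 KO lists, against 5.43% of all regions. No region was Sphk2 KO-only, against 0.605% of all regions. Arg1 region 2, 666 bp above the gene, was listed in WT replicate 2 alone with 2.17, at percentile 5.59. The nearest peak to the Arg1 body lay 44912 and 2810 bp away in Sphk2 KO replicates 1 and 2, against 2807 and 666 bp in WT. With peaks of −log10 q of at least 5, or with the 20759 top peaks of every list, region 3 had both WT calls and no Sphk2 KO call, and region 1 was no longer WT-only.

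**Figure D1:**
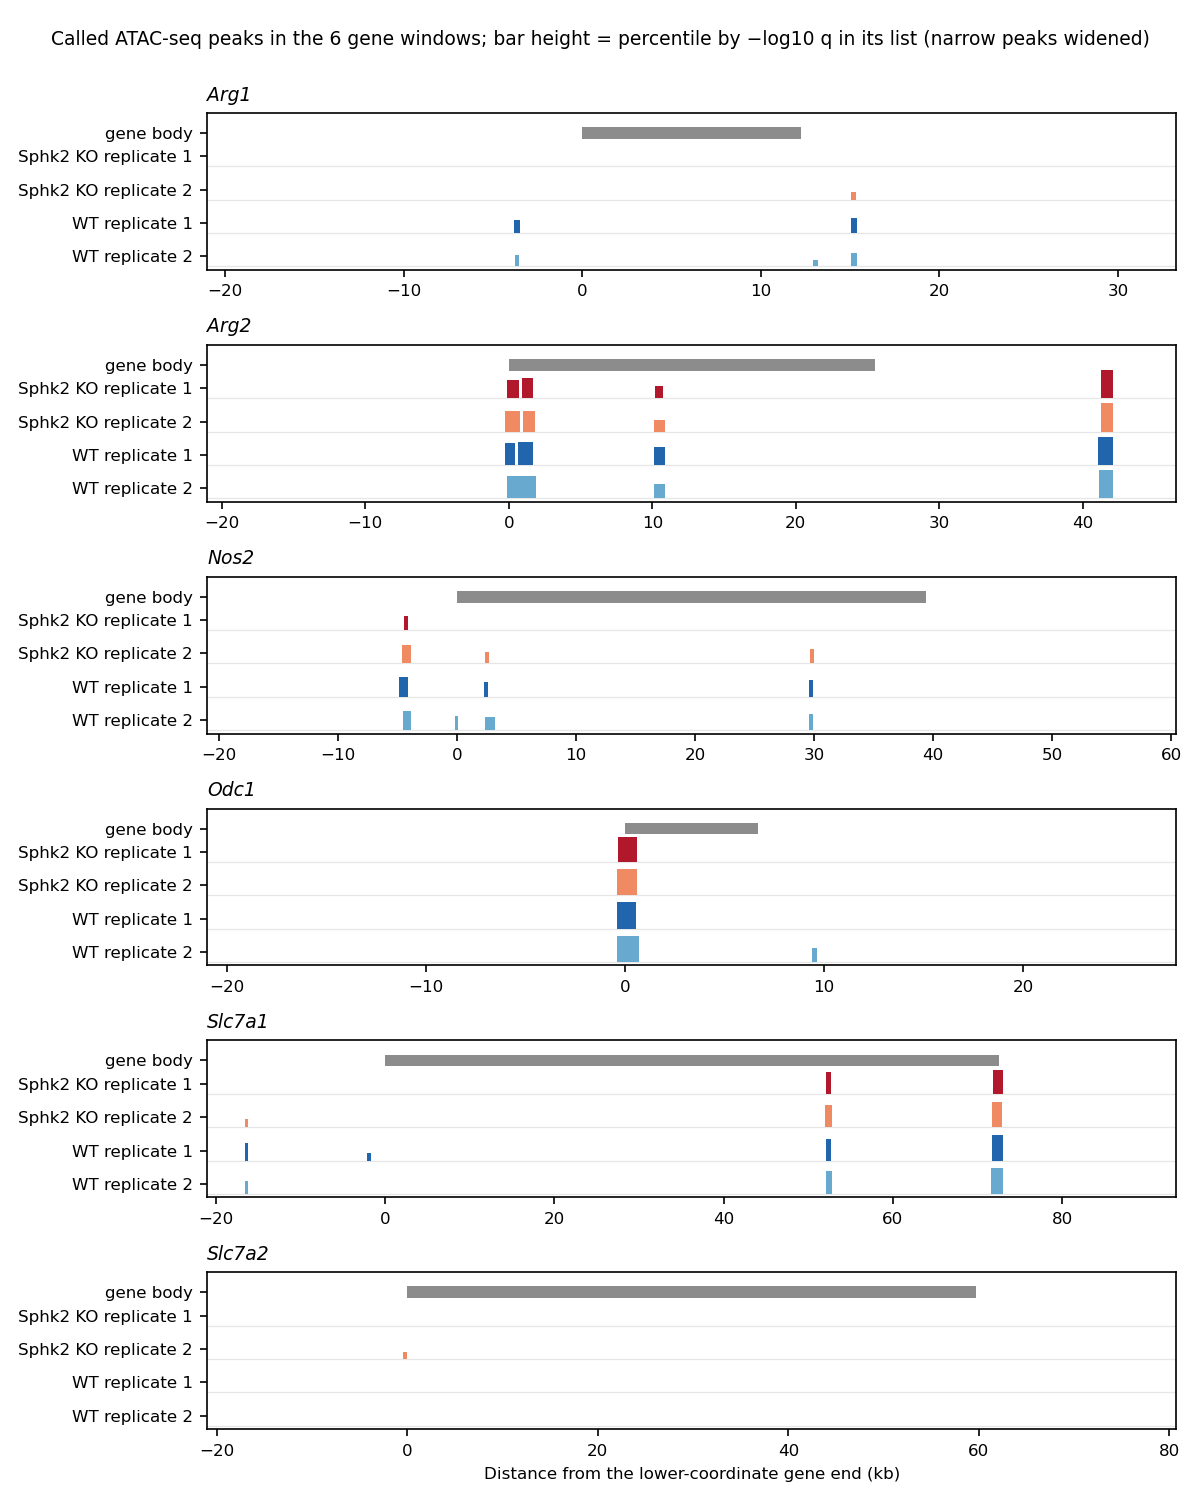
Called peaks in the 6 gene windows, with distance from the lower-coordinate gene end (kb) on the x axis and 1 track per library. Bars are peaks, their height is the percentile by −log10 q within the library's list, grey marks the gene body, and narrow peaks are drawn wider than to scale so that they show. Arg1 has no peak on its body in any library, while Arg2, Odc1 and Slc7a1 have peaks at a gene end in all 4.

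Arg2, the mitochondrial arginase gene (chromosome 12, 79130788 to 79156301), had all of its 3 regions called in all 4 libraries. Region 1 (79130513 to 79132675) covered the lower gene end and the first part of the body. It held a summit 6 and 13 bp inside the gene end in Sphk2 KO replicates 1 and 2, and 60 bp outside it in WT replicate 1. A further summit lay 1453 and 1508 bp inside the gene in Sphk2 KO and 1483 and 1516 bp inside it in WT. In WT replicate 2 the whole stretch was a single peak of 2028 bp. Its best −log10 q was 26.9 and 42.3 in Sphk2 KO and 42.2 and 40.7 in WT, so the groups overlapped by this score. By full-list percentile both WT libraries were higher, at 65.1 and 68.2 in Sphk2 KO and 77.3 and 73.9 in WT. Region 2 (79140885 to 79141678) lay inside the gene and touched the non-coding RNA gene Gm40462, an end of which was within 1 kb. Its −log10 q was 7.44 and 7.28 in Sphk2 KO against 15.7 and 8.30 in WT. Both Sphk2 KO values lay below both WT values, and WT replicate 1 stood apart from the other 3. By full-list percentile, 54.3% of all regions called in all 4 libraries were likewise higher in both WT lists. Ranked among those regions only, the groups overlapped, at percentiles 17.1 and 4.02 in Sphk2 KO and 23.1 and 5.47 in WT. Region 3 lay 15535 bp above Arg2, at an end of Vti1b, a vesicle fusion gene, and ranked 243 and 257 in Sphk2 KO and 784 and 163 in WT.

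Nos2 (chromosome 11, 78920787 to 78960226) had its best-called region outside the gene. Region 1 (78915917 to 78916887), with a mean summit 4184 bp below the lower gene end over the 4 libraries, had a −log10 q of 11.4 and 26.2 in Sphk2 KO against 23.8 and 22.4 in WT. By this score the groups overlapped, and Sphk2 KO replicate 1 was the low library. By full-list percentile both WT libraries were higher, at 41.0 and 57.4 in Sphk2 KO and 65.3 and 61.1 in WT. Regions 3 and 4, inside the gene, were called in all but Sphk2 KO replicate 1. Region 3 (78923110 to 78923928) had 7.72 in Sphk2 KO replicate 2 and 8.57 and 7.53 in WT, and region 4 (78950376 to 78950813) had 12.2 in Sphk2 KO replicate 2 and 11.8 and 11.9 in WT. Where it was called in Sphk2 KO, each thus had a −log10 q close to WT. By percentile in its list, Sphk2 KO replicate 2 lay below both WT libraries. Region 3 stood at 29.6 in it against 42.0 and 35.4 in WT, and region 4 at 40.0 against 49.7 and 46.8. Region 2, at the lower gene end itself, was listed in WT replicate 2 alone with 8.20.

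Odc1 had the best-called gene end of the 6. Region 1 (chromosome 12, 17544390 to 17545478) had a −log10 q of 55.9 and 115 in Sphk2 KO and 101 and 92.1 in WT, with a fold over local background of 11.2 and 12.1 in Sphk2 KO and 12.5 and 11.6 in WT. By score and by fold the groups overlapped. By full-list percentile both WT libraries were higher, at 85.1 and 89.2 in Sphk2 KO and 93.1 and 90.2 in WT. The summit stood 11 bases before the RefSeq start in both Sphk2 KO libraries, and 19 and 11 bases before it in WT, which is within the last 19 bases of the Odc1 stretch printed above. Region 2, 2700 bp above the gene, was listed in WT replicate 2 alone with 7.91.

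Of the transporter genes, Slc7a1 had 4 regions and Slc7a2 had 1. Slc7a1, the broadly used arginine carrier (chromosome 5, 148327410 to 148399904), was called at its upper end, where transcription starts, in all 4 libraries. That region 4 (148398972 to 148400412) had 48.5 and 90.5 in Sphk2 KO and 75.6 and 82.5 in WT, with summits 29 and 31 bases after the start in Sphk2 KO and 30 and 23 bases after it in WT. The table lists a second Slc7a1 start at 148392815, and no peak of any library lay there. Region 3 (148379393 to 148380175), 20176 bp inside the gene from that end, had 33.3 and 50.8 in Sphk2 KO and 33.9 and 45.0 in WT. Region 1, 16166 bp below the gene and inside Mtus2, had 3.41 in Sphk2 KO replicate 2 and no call in Sphk2 KO replicate 1, against 13.0 and 7.24 in WT, and became WT-only at a −log10 q of at least 5. Region 2 was listed in WT replicate 1 alone with 2.38.

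Slc7a2, the inducible carrier that supplies arginine in activated macrophages (chromosome 8, 40862341 to 40922070), had a single call over 99.7 kb. Region 1 (40861878 to 40862294), 47 bp below the gene, was listed in Sphk2 KO replicate 2 alone with 2.47 and a stack of 13 fragments. Otherwise the nearest peak to the Slc7a2 body lay 80732 bp away in Sphk2 KO replicate 1, and 80928 and 39810 bp away in WT.

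**Figure D2:**
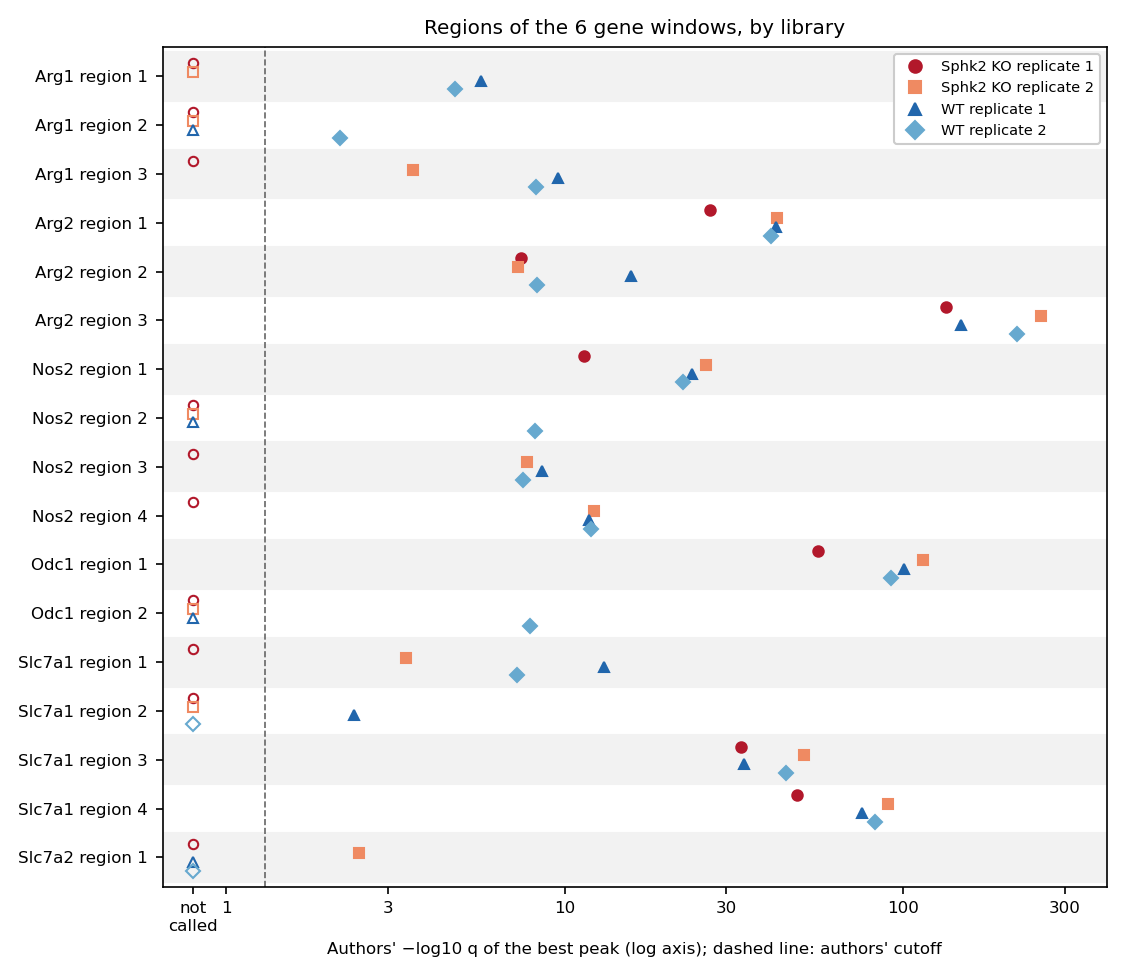
The authors' −log10 q of the best peak (x, log axis) for each of the 17 regions (y) and library (colour and shape), with open symbols where no peak was called and a dashed line at the authors' cutoff. Arg2 region 3, Odc1 region 1 and Slc7a1 region 4 score above 48 in all 4 libraries, while 10 of the 17 regions have an open symbol for Sphk2 KO replicate 1.

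Taking the 6 windows together, 8 and 13 peaks were listed in Sphk2 KO and 14 and 15 in WT, or 10.5 ± 3.54 against 14.5 ± 0.707 (SD, n = 2 each). The difference was -4 peaks (two-sided exact permutation test over libraries, p = 0.333, the smallest p that 2 against 2 allow). It was -1.5 without Sphk2 KO replicate 1 and -6.5 without Sphk2 KO replicate 2. As a share of each list the windows held 3.85 and 4.74 peaks per 10000 in Sphk2 KO and 4.44 and 4.71 in WT, which overlap (exact permutation p = 1). Of the 17 regions, 7 were called in all 4 libraries, against 37.5% of all regions. Another 4, at Arg1, Nos2 and Slc7a1, were missing in Sphk2 KO replicate 1 alone, against 7.19% of all regions. None was missing in any other library alone, against 0.486% to 0.936% of all regions. Sphk2 KO replicate 1 had the fewest fragments and the shortest list. It also had the fewest peaks per 100k retained fragments, 80.2 against 99.1 in Sphk2 KO replicate 2 and 93.1 and 92.5 in WT. The part of depth, or of other differences between libraries, in these missing calls was not tested. With Sphk2 KO replicate 2 left out, WT-only regions therefore numbered 5 of 16, against 13.8% of all regions in that setting. They numbered 4 of 16 without WT replicate 1, against 23.5%, and 2 of 14 without WT replicate 2, against 23.8%. Without Sphk2 KO replicate 1, the Slc7a2 region became Sphk2 KO-only, since 1 library then stands for the group, as did 9.79% of all regions.

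For the 7 regions called in all 4 libraries, ranks were compared on 2 scales, because a longer list adds weak peaks and so lifts the percentile of strong ones. In the full lists 6 of the 7 had a higher percentile in both WT libraries than in both Sphk2 KO libraries, against 54.3% of all such regions. The exception was Arg2 region 3, where the groups overlapped. The reverse was seen in 0 of 7, against 2.50%. The median difference, Sphk2 KO minus WT, was -5.17 percentile points over the 7 and -6.83 over all 16973. Ranked among these shared regions only, a scale added after the data had been seen, 1 of 7 was higher in both Sphk2 KO libraries, against 22.2%, and 1 of 7 higher in both WT libraries, against 21.2%. The median difference was then -1.81 over the 7 and 0.0795 over all. The region higher in both Sphk2 KO libraries was Slc7a1 region 3, at percentiles 65.0 and 55.38 in Sphk2 KO and 49.8 and 55.38 in WT, so Sphk2 KO replicate 2 and WT replicate 2 all but met. The region higher in both WT libraries was Slc7a1 region 4, with 77.4 and 75.2 in Sphk2 KO and 78.4 and 77.8 in WT. Sphk2 KO replicate 1 thus lay close to both WT libraries. With shared regions ordered by fold instead of −log10 q, the median difference was 2.84 over the 7 and 0.191 over all. Over the 7 its sign was opposite to that by −log10 q.

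**Figure D3:**
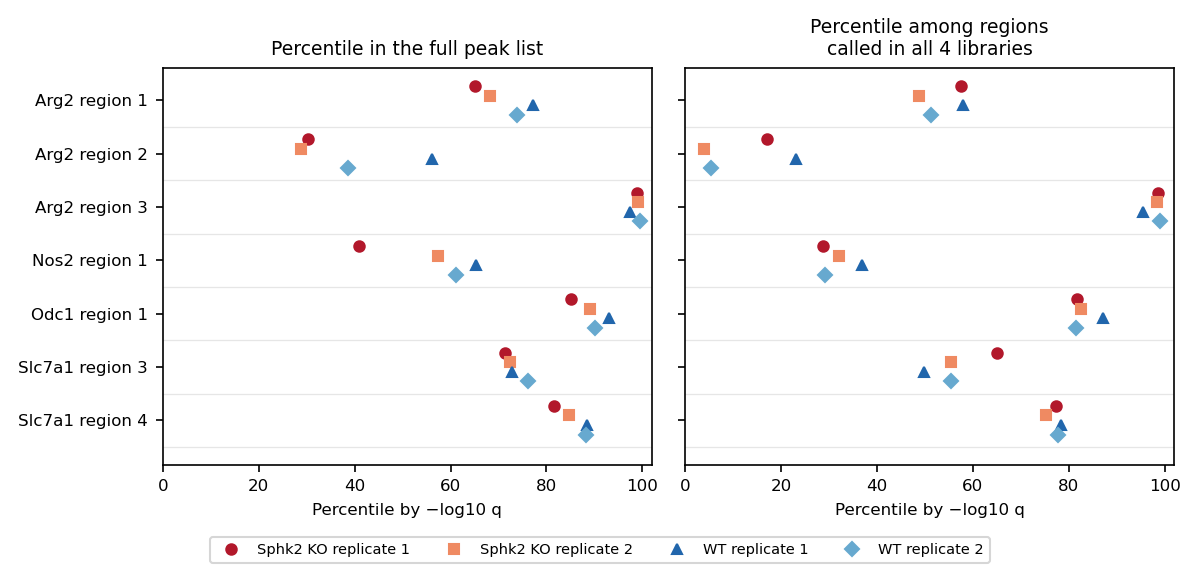
Percentile by −log10 q of the 7 regions called in all 4 libraries, in the full lists (left) and among the regions called in all 4 libraries (right), by library. On the left 6 of 7 regions have both WT symbols to the right of both Sphk2 KO symbols, and on the right only Slc7a1 region 4 does.

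The wider list covered 54 further genes of arginine, nitric oxide and polyamine metabolism, of which 36 and 40 showed a gene-end peak in Sphk2 KO and 42 and 41 in WT. Over all 21887 protein-coding genes the shares were 42.6% and 47.3% in Sphk2 KO and 47.9% and 48.8% in WT. Ass1, argininosuccinate synthase, which rebuilds arginine from the citrulline that Nos2 releases, was the only listed gene whose gene-end peak was WT-only, a pattern of 1.27% of all genes. No listed gene had the reverse, against 0.101% of all genes. The Ass1 peaks covered 985 and 911 bp in WT, with a −log10 q of 12.9 and 9.75, stacks of 30 and 29 fragments, and summits 62 and 96 bases before the RefSeq start, within the stretch printed above. They stood at percentiles 51.5 and 41.7 of the WT lists. Ass1 was WT-only under each of the 4 other settings tried for gene ends. In the human gene the promoter E-box is known to be bound by MYC and HIF-1α, which was not tested here.

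A gene-end peak in all 4 libraries was found at 36 of the 54 genes, against 41.6% of all genes. Of 16 polyamine genes, 14 had one, Sms, spermine synthase, lacked it in Sphk2 KO replicate 1 alone, and Oaz3 had none in any. Oaz1, the antizyme that sends Odc1 protein for degradation, had a −log10 q of 149 and 342 in Sphk2 KO and 244 and 263 in WT. Eif5a, the translation factor modified from spermidine, had 183 and 331 in Sphk2 KO and 208 and 264 in WT, so that in neither gene did the groups separate. In the nitric oxide group 8 of 11 genes were called in all 4 libraries, among them Gch1, which makes the cofactor of Nos2, with 11.5 and 39.5 in Sphk2 KO and 21.5 and 26.2 in WT. Oaz1, Eif5a and Gch1, and Otc and Cps1 below, are examples chosen after their values were seen. Of the 8 citrulline, urea and creatine genes, Asl and Gamt were called in all 4 libraries. Another 4, among them the liver urea cycle genes Otc and Cps1, were called in none, as were 48.6% of all genes. Of 13 transport and sensing genes, 7 were called in all 4 libraries and 5 in none. The 4 ornithine and proline genes had 3 called in all 4 libraries, and both arginine methyltransferase genes were. Gatm, Sms, Ddah2 and Pycr1 were called in all but Sphk2 KO replicate 1, against 3.31% of all genes.

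**Figure D4:**
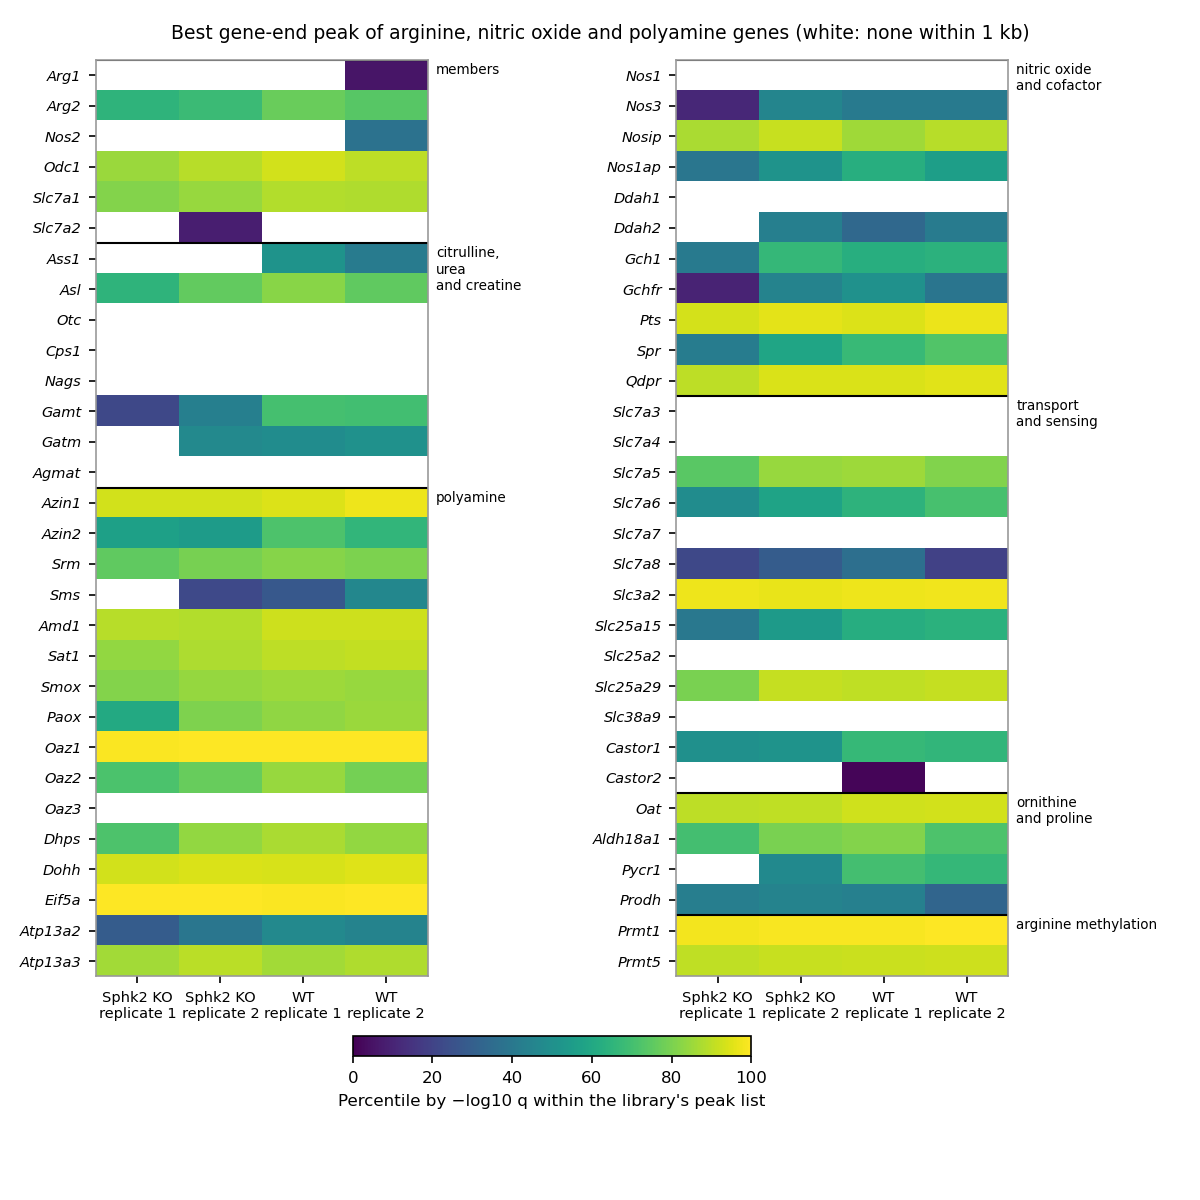
Percentile by −log10 q (colour) of the best gene-end peak (at most 1 kb away), for the 6 members and 54 further genes (rows, grouped by role) in each library (columns), with white for no peak. Ass1 is coloured in the WT columns only, and Oaz1 and Eif5a are near the top of all 4 lists.

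Among genes with a gene-end peak in all 4 libraries, ranked against each other, 7 of the 36 listed genes were higher in both Sphk2 KO libraries, against 20.9% of 9111 genes, and 4 were higher in both WT libraries, against 19.1%. None of Arg2, Odc1 and Slc7a1 was in either set. The Slc7a1 gene-end peak is region 4, which was higher in both WT libraries among shared regions. Among gene ends its groups overlapped, at percentiles 62.8 and 58.6 in Sphk2 KO and 62.9 and 62.1 in WT. Gamt, guanidinoacetate methyltransferase of creatine synthesis, named after its values were seen, was at percentiles 4.90 and 6.87 in Sphk2 KO and 26.5 and 24.6 in WT. Nosip, a nitric oxide synthase-interacting protein gene that lies 631 kb from Sphk2 on chromosome 7 and was also named afterwards, was at 72.8 and 75.5 in Sphk2 KO and 56.4 and 64.9 in WT. The listed gene closest to a member in its gene-end percentiles over the 4 full lists was Asl for Arg2, with a largest difference of 7.75 points, and Sat1, a polyamine acetyltransferase gene, for both Odc1 (3.21) and Slc7a1 (2.96).

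In windows of 20 kb the 54 genes held 173 regions, of which 15 (8.67%) were WT-only and 4 (2.31%) Sphk2 KO-only, against the 5.43% and 0.605% of all regions given above. The best-ranked WT-only region lay inside Slc7a8, a neutral amino acid transporter gene, with a −log10 q of 13.8 and 10.6, and Slc7a8 held 4 of the 15. The Ass1 region described above was next, followed by one 6105 bp from Prmt1, an arginine methyltransferase gene, which touched Cpt1c and had 7.90 and 14.9. Prmt1 and Nosip lie 723 and 631 kb from Sphk2 on chromosome 7. Slc7a5, a subunit gene of the large neutral amino acid transporter, had a WT-only region 19582 bp away (9.51 and 9.44) and another 3536 bp away (7.17 and 6.99). Dohh, Slc7a4, Nosip, Dhps, Castor2, Nos3 and 1 further gene had 1 each, all ranked below the better of the Slc7a5 regions by the worse of their 2 WT ranks. Of the 4 Sphk2 KO-only regions 3 were assigned to Nos1ap, an adaptor gene of the neuronal nitric oxide synthase, with its best at 6.65 and 8.27. The other, 18749 bp from Azin1, an antizyme inhibitor gene, had 5.26 and 9.30.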

How the data were processed

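ATAC-seq libraries of Gr1+CD11b+ cells from the ascites of EL4-bearing mice were analysed, 2 from Sphk2 KO and 2 from WT mice. Per the submitters' processing notes, cutadapt, BWA and MACS2 were used on build mm10. Per the file headers, MACS 2.1.1.20160309 called peaks in each library separately from paired fragments at a q-value threshold of 0.05, with a local background of 10 kb and 1 fragment kept per position. Tn5 shifting and read filters are not given in the sources used here. The deposited peak lists give a pileup (the signal, as fragment coverage at the summit), a −log10 p-value, a −log10 q-value and a fold enrichment, the authors' ratio over local background. No read counts per region were analysed, so differences in signal between libraries were not tested.

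Genes and their positions came from the RefSeq table of build GRCm38.p6, which gives no exons and no strand, so regions inside genes are not placed in exons or introns. Peaks were merged over the 4 lists at 1 bp of overlap, and member windows were extended by 20 kb. A gene-end peak lies within 1 kb of either gene end. Exact permutation tests over libraries were two-sided. Named genes were all 6 members, genes of the wider list with a gene-end peak in 1 group only, up to 12 of its genes with regions called in 1 group only by the worse of their 2 ranks, and the most alike gene of each member. Other genes, such as those called in all but 1 library or in none, were named after their values were seen. Members and lists were chosen with earlier results of these data known. Python 3.11.15, pandas 2.3.3, numpy 2.4.6 and scipy 1.17.1 were used. The merging and classing steps were tested on the peak lists after peaks of chosen shared regions had been removed from 1 group. The ranking step was not tested in this way. Alternatives were a −log10 q of at least 5, equal list lengths, ranks by fold or among shared regions, windows of 5 and 50 kb, a larger overlap, a replicate block and leaving out each library.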

Additional observations from a re-analysis of the deposited data

How the results depend on the processing

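The WT-only count of 1 of 17 regions became 2 of 14 at a −log10 q of at least 5 (Arg1 region 3 and Slc7a1 region 1), against 5.30% of all regions. It was 5 of 30 in windows of 50 kb, against 5.43%. It was 1 to 5 when a library was left out, against 6.22% to 23.8% of all regions. The Sphk2 KO-only count of 0 ranged from 0 to 1 when a library was left out, against 1.28% to 9.79%. Of the 7 shared regions, those ranking higher in both Sphk2 KO libraries (0) numbered 1 with lists of equal length, 1 among shared regions and 1 by fold among shared regions, against 23.5%, 22.2% and 18.6% of all. They numbered 0 to 1 with a library left out, against 4.10% to 16.4%. Those ranking higher in both WT libraries (6) numbered 1, 1 and 0 under these rank scales, against 20.1%, 21.2% and 18.0%. The scales among shared regions were added after the data had been seen. By fold in the full lists they numbered 4 of 7, against 47.0%, and at a −log10 q of at least 5 they numbered 5 of 7, against 34.3%. In windows of 5 and 50 kb they numbered 6 of 6 and 9 of 12, against 54.3%. They numbered 6 to 10 with a library left out, against 58.2% to 87.2%, where the 10 were of 11 regions, those called in the 3 libraries left after dropping Sphk2 KO replicate 1. The difference of -4 peaks was -10 in windows of 50 kb and ranged from -6.5 to -1.5 with a library left out. With replicate numbers as a replicate block it was -4 (exact sign-flip test, p = 0.5, the smallest that 2 pairs allow), and the labels do not say that the numbers pair the samples. Lists of equal length kept 1 WT-only region, which was Arg1 region 3 in place of region 1. Requiring overlap of the shorter interval could change nothing, because merged regions contain their peaks. The cause of these shifts was not tested. With 2 libraries a group, no exact test could pass 0.05.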

Other observations

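Nos2 region 2 had a higher stack but a lower score than region 4. Region 2, at the lower gene end, was listed in WT replicate 2 with a stack of 34 fragments, a fold of 3.58 and a −log10 q of 8.20, while region 4, inside the gene, had 29 fragments in the same library and a −log10 q of 11.9.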
